A study of Macaca fascicularis with 56 samples.

Results

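Whole blood of cynomolgus macaques at the later hours of an endotoxin experiment was compared between animals given the scrambled peptide and animals given vehicle. The first group, labelled "peptide control", held 4 animals (Y31305 to Y31308), and the second, labelled "Vehicle", held 4 other animals (Y31301 to Y31304). The hours were T4 and T8, that is 4 and 8 h, so 16 arrays of the 56 in the series carry the comparison, 8 in each arm. The remaining arrays are T0 and T2 of these animals and all hours of the 6 animals of the LR12 arm. The series title describes an endotoxin challenge followed by LR12 or by LR12 in scrambled order. The labels give no genotype, age, sex, endotoxin dose or peptide dose, and they do not say whether the Vehicle animals received endotoxin or where in the protocol T0 was drawn. Each animal gave 1 array per hour, so n is the number of animals throughout.

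Endotoxin is the lipopolysaccharide of the bacterial outer membrane. Monocytes and neutrophils sense it through TLR4, induce cytokines and chemokines through NF-kB, and within hours the blood holds more neutrophils and fewer lymphocytes. TREM-1 is a surface receptor of these phagocytes that signals through the adaptor TYROBP and amplifies that response. LR12 is a short peptide taken from the sequence of TREML1 that binds TREM-1 ligands in the receptor's place, and the scrambled peptide has the same residues in another order, so it serves as the control for receiving a peptide at all. The comparison with Vehicle asks whether the 2 control arms of the experiment read alike.

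Values are log2 of the deposited MAS5 signal, a microarray intensity, and each animal's value is the mean of its T4 and T8 arrays unless an hour is named. Differences are peptide control minus Vehicle, so 1 on this scale is a doubling. The probes were designed on human sequence, so a level was compared between animals and never between genes. Whether animals differ in sequence under a probe was not tested, which bears on genes whose arms already differed at T0. Median signals of the 16 arrays lay between log2 3.79 and 4.34. Blood cell markers were well above that in all 8 animals: S100A9 of neutrophils and monocytes lay between 12.11 and 13.45, ALAS2 of erythroid cells between 12.89 and 13.83, and PPBP of platelets between 9.48 and 12.02.

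The arrays fell into 2 sets by their control transcripts, and the sets were not spread evenly over the arms. The Bs control transcripts, made from Bacillus subtilis genes, averaged log2 9.41 to 10.56 on 11 of the 16 arrays and 6.96 to 7.63 on the other 5. Probe sets of 18S ribosomal RNA split the same way, at 9.63 to 10.71 on the same 11 arrays and 6.13 to 6.83 on the other 5. A further group of controls, labelled Ec, did not split, at 11.44 to 11.97 over the 16 arrays. The 11 are called high-control arrays here. They were 4 of 4 peptide control arrays and 2 of 4 Vehicle arrays at T4, and 3 of 4 peptide control arrays and 2 of 4 Vehicle arrays at T8. The Vehicle animals with high-control arrays were Y31303 and Y31304 at both hours, and the peptide control array without was Y31305 at T8. At T0, the high-control arrays were 3 of 4 peptide control arrays, all but that of Y31307, and 2 of 4 Vehicle arrays.

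No gene passed the test between the arms. With limma on 1 value per animal and Benjamini-Hochberg adjustment over the 16020 genes tested, 0 genes were called at an adjusted p below 0.05, which is 0% of the genes, and the smallest adjusted p was 0.559. At an unadjusted p below 0.05 there were 766 genes, or 4.78% of those tested, 430 of them higher (2.68%) and 336 lower (2.1%) in peptide control animals. All 4 peptide control animals were above all 4 Vehicle animals for 255 genes (1.59%), and below them for 150 genes (0.936%). The median difference over all genes was -0.03, and 493 genes were at least 1 log2 unit higher and 418 at least 1 lower. The median SE of a gene was 0.36, so a difference of that size is within the error of 4 animals against 4.

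**Figure D1:**
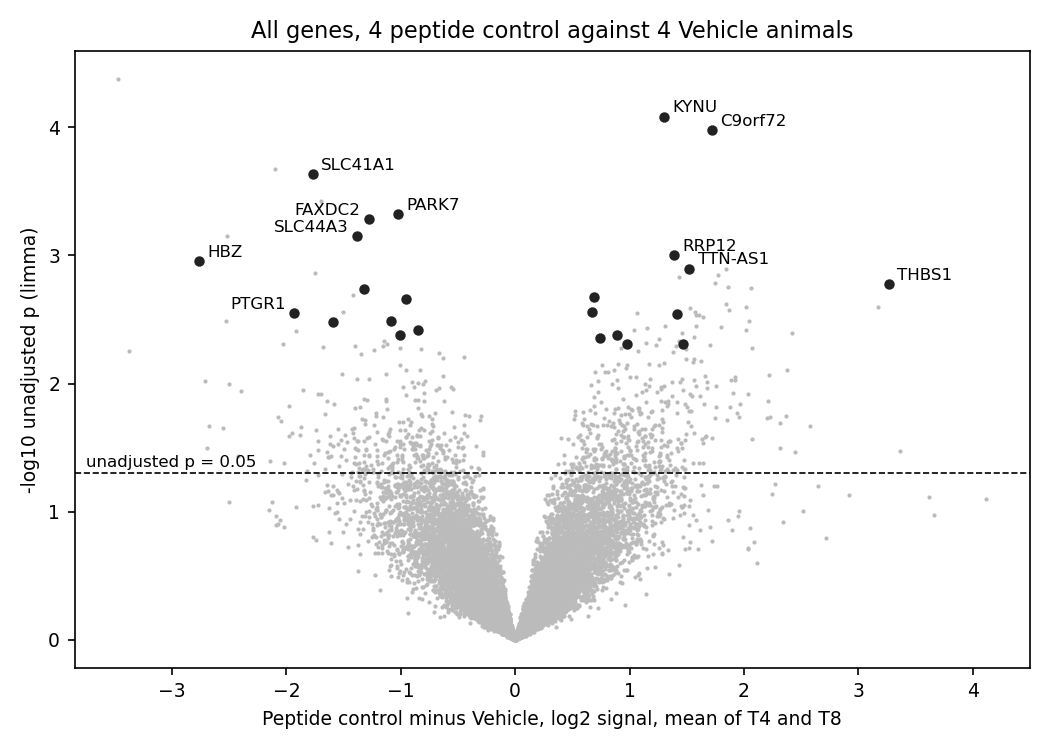
Each point is 1 of the 16020 genes, with the difference (peptide control minus Vehicle, log2 signal, mean of T4 and T8) on the x axis and -log10 of the unadjusted limma p on the y axis. The 24 dark points are the leading genes described in the text, 12 on each side; all have an adjusted p of at least 0.559, so none was called.

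With arrays centred on their medians, which also gave 0 calls, 304 genes were higher and 524 lower at an unadjusted p below 0.05, so the balance of directions depends on the scaling.

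The count of called genes depended on how the arrays were entered. With the 16 arrays fitted singly, the hour as a covariate and the animal as a replicate block (consensus correlation 0.369), 1 gene was called, KYNU (adjusted p = 0.011). With the 12 groups of arm and hour fitted over all 56 arrays and the animal as a block (consensus correlation 0.221), 37 genes were called for the mean of T4 and T8, 4 at T4 and 4 at T8. At an unadjusted p below 0.05 the first block fit held 1087 genes and the second 2073. Those at T4 were KYNU, ME2, GJB2 and THBS1, and those at T8 were KYNU, ME2, GJB2 and HBZ. Both block fits give all genes one correlation between an animal's arrays, and the second takes its spread from 14 animals at all 4 hours. The values below come from the fit on 1 value per animal.

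The genes that led the higher side were of several kinds, and the first was KYNU, the gene of kynureninase, an enzyme of tryptophan breakdown. KYNU read 11.06, 11.17, 11.11 and 11.21 in peptide control animals Y31305 to Y31308, against 9.62, 9.63, 9.66 and 10.42 in Vehicle animals Y31301 to Y31304. The 4 peptide control values were close together (SD 0.07) and above every Vehicle value, of which Y31304 was the highest. The difference was 1.30 ± 0.21 (SE, 95% confidence interval 0.84 to 1.76, adjusted p = 0.559). The other 2 probe sets of KYNU gave 1.22 and 1.28, also without overlap.

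C9orf72, whose product takes part in autophagy and endosomal traffic, read 8.28, 8.88, 9.0 and 8.84 in peptide control animals, against 6.52, 7.56, 7.17 and 6.86 in Vehicle animals. The arms did not overlap, and the difference was 1.72 ± 0.28 (SE, adjusted p = 0.559). THBS1, the gene of thrombospondin 1, a matrix protein of platelets and monocytes, had the largest difference of the 12 leading higher genes. It read 7.65, 10.79, 11.08 and 9.93 in peptide control animals, against 6.30, 5.01, 7.46 and 7.62 in Vehicle animals. Y31305 lay just above the highest Vehicle animal, Y31304, and the other 3 peptide control animals lay more than 2 units above it. The difference was 3.27 ± 0.78 (SE, adjusted p = 0.809), and all 6 other probe sets of THBS1 were higher in peptide control animals without overlap, by 1.40 to 2.57.

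SOCS1, an inhibitor of cytokine receptor signalling, read 6.89, 7.28, 7.09 and 7.10 in peptide control animals, against 4.89, 5.62, 6.74 and 5.45 in Vehicle animals, a difference of 1.42 ± 0.36 (SE, adjusted p = 0.809). Y31303 was the Vehicle animal nearest to the peptide control animals. DUSP10, a phosphatase of stress-activated MAP kinases, was 1.47 ± 0.41 higher, and LAP3, an interferon-induced aminopeptidase, 0.69 ± 0.17 higher. The rest of the 12 were RRP12 (1.39), a ribosome assembly factor, TTN-AS1 (1.52), an RNA antisense to the titin gene, TAF8 (0.98), a subunit of the general transcription factor TFIID, ARHGAP31 (0.89), a GTPase-activating protein, NUCKS1 (0.74), a nuclear phosphoprotein, and GSAP (0.67), named as an activator of gamma-secretase.

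On the lower side the same rule named 12 genes. SLC41A1, a magnesium transporter, read 5.77, 4.86, 5.81 and 5.24 in peptide control animals, against 7.11, 7.80, 6.66 and 7.18 in Vehicle animals, a difference of -1.77 ± 0.32 (SE, adjusted p = 0.745). PARK7, whose product DJ-1 protects against oxidation, read 9.26, 9.09, 9.20 and 9.09 in peptide control animals, against 10.09, 9.85, 10.19 and 10.61 in Vehicle animals. The peptide control values of PARK7 were again close together, and the difference was -1.03 ± 0.20 (SE, adjusted p = 0.809). GPX4, the peroxidase that removes lipid peroxides, read 10.71, 9.93, 10.50 and 11.02 in peptide control animals, against 11.33, 11.26, 11.67 and 11.72 in Vehicle animals, a difference of -0.96 ± 0.24.

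PTGR1, prostaglandin reductase 1, read 9.59, 7.51, 9.18 and 9.98 in peptide control animals, against 11.37, 10.56, 11.62 and 10.44 in Vehicle animals, with Y31306 the lowest animal and no overlap. TPI1, the glycolytic triosephosphate isomerase, read 9.86, 9.39, 9.09 and 9.90 in peptide control animals, against 10.44, 10.59, 10.12 and 10.47 in Vehicle animals, a difference of -0.85 ± 0.23 (SE, adjusted p = 0.809). The arms did not overlap for TPI1 on this probe set, but its other 2 probe sets gave 0.19 and 0.23, in the opposite direction. The lower genes also held SLC44A3 (-1.38), of the choline transporter-like family, FBXO10 (-1.33), a ubiquitin ligase subunit, FAXDC2 (-1.28), a fatty acid hydroxylase family member, DNAJB2 (-1.09), a co-chaperone, DNAI2 (-1.59), a dynein chain of cilia, and NUDT13 (-1.0), a nudix hydrolase.

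HBZ, the gene of the embryonic zeta globin, read 3.36, 4.10, 4.60 and 1.66 in peptide control animals, against 5.33, 5.92, 6.34 and 7.20 in Vehicle animals. Its difference of -2.77 ± 0.62 (SE, adjusted p = 0.809) had 1 of the 8 peptide control arrays under the 20th percentile of its array, and globin genes resemble each other in sequence, so the gene behind this reading is uncertain. GJB2, the gene of connexin 26, was named by its T8 values and had the lowest unadjusted p of those described. It read 1.91, 3.27, 3.07 and 1.76 in peptide control animals, against 5.42, 6.35, 7.01 and 5.12 in Vehicle animals, a difference of -3.47 ± 0.51 (SE, adjusted p = 0.559). On 2 of the 8 peptide control arrays it lay under the 20th percentile, where a level is poorly defined.

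Among the 24 leading genes, 15 had other probe sets that passed the filter, 36 in all, and 32 of those gave the same direction. Adjusted p values of the 24 ran from 0.559 to 0.809.

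Part of these differences stood between the arms at T0 as well. For 23 of the 24 leading genes the T0 difference had the same direction, against 56.9% of all genes, and DUSP10 was the exception (-0.05 at T0). For 11 of the 24 the T0 difference was at least 50% of the later one, against 36.7% of all genes. The arms did not overlap at T0 for KYNU and C9orf72 on the higher side and for HBZ, GPX4 and DNAI2 on the lower side, where 1.28% of all genes did so higher and 0.737% lower. Both counts lie on genes chosen for a later difference in the same animals, so no test goes with them.

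KYNU read 11.55, 11.20, 10.85 and 11.48 at T0 in peptide control animals, against 10.06, 10.37, 10.35 and 10.71 in Vehicle animals, a difference of 0.90 at that hour. C9orf72 differed by 1.68 at T0, against 1.72 later. HBZ differed by -2.46 at T0, GPX4 by -0.55, DNAI2 by -1.12 and GJB2, again without overlap, by -3.23. THBS1 differed by 1.285 and SOCS1 by 0.617 at T0, both with overlap between the arms. Other leading genes had little difference at T0: LAP3 (0.05), ARHGAP31 (0.05), NUDT13 (-0.03), SLC41A1 (-0.08) and TPI1 (-0.00).

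The difference between the arms in each animal's change since T0 called 0 genes as well (limma, smallest adjusted p 0.482), with 348 genes higher (2.17%) and 363 lower (2.27%) at an unadjusted p below 0.05, 4.44% of those tested. Of the 24 leading genes, 7 were among them, and the smallest adjusted p of the 24 was 0.93. With the array set as a covariate, 378 genes were higher and 342 lower in this change at an unadjusted p below 0.05, with 0 calls. The set changed since T0 only in Y31305 and Y31307, so that covariate rests on these animals. At T0 itself, 0 genes were called, with 476 genes (2.97%) at an unadjusted p below 0.05, 1.7% higher and 1.27% lower, and a smallest adjusted p of 0.238.

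**Figure D2:**
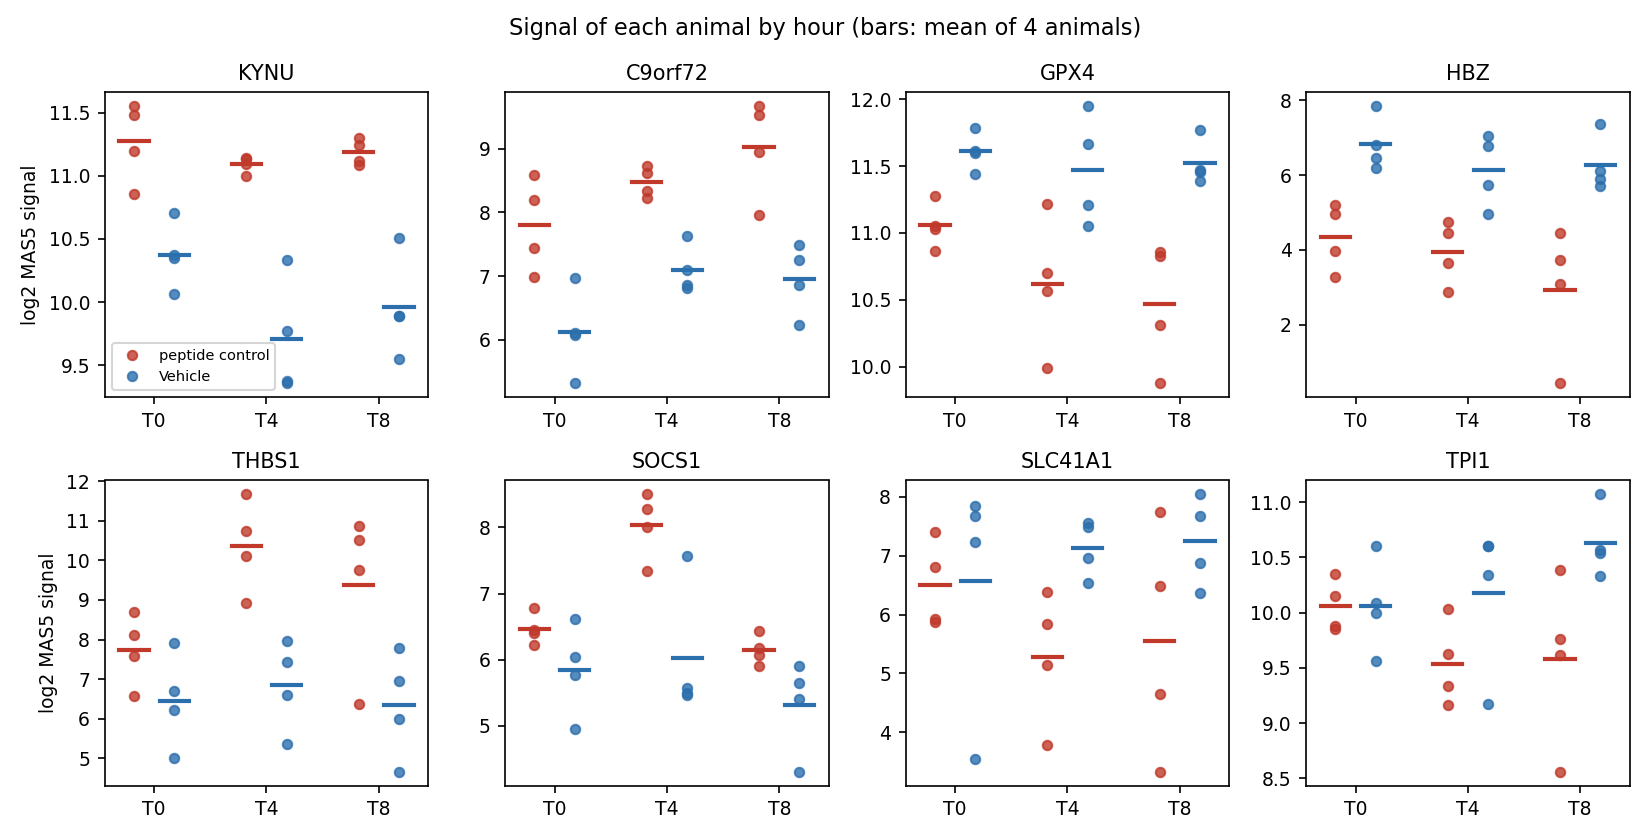
Log2 MAS5 signal of 8 leading genes at T0, T4 and T8, 1 point per animal, peptide control left and Vehicle right at each hour, with bars at the mean of 4 animals. KYNU, C9orf72, GPX4 and HBZ (upper row) do not overlap between the arms at T0 either, while THBS1, SOCS1, SLC41A1 and TPI1 (lower row) overlap at T0. THBS1 and SOCS1 still differ there by 1.285 and 0.617.

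Each hour apart gave the same count of calls. At T4, 0 genes were called (limma, smallest adjusted p 0.566), with 573 genes higher (3.58%) and 627 lower (3.91%) at an unadjusted p below 0.05, 7.49% of those tested, or 380 and 890 with arrays centred. At T8, 0 genes were called (smallest adjusted p 0.92), with 390 higher (2.43%) and 291 lower (1.82%), 4.25% of those tested, or 269 and 373 with arrays centred. Of the 24 leading genes, 15 did not overlap at T4, 15 at T8, and 9 at both hours. The 24 were chosen for no overlap in the mean of both hours and one direction at each, so nothing is read from these counts. Over all genes the arms did not overlap for 1.79% higher and 1.45% lower at T4, and for 1.56% higher and 1.24% lower at T8.

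The leading genes differed in how far the 2 hours were alike. KYNU was 1.38 higher at T4 and 1.23 higher at T8. C9orf72 was 1.38 higher at T4 and 2.07 higher at T8. SOCS1 was mainly a T4 gene: it read 7.35, 8.5, 8.28 and 8.01 at T4 in peptide control animals, against 5.47, 5.58, 7.57 and 5.50 in Vehicle animals. The Vehicle animal Y31303 lay among the peptide control animals there, and the difference was 2.01 at T4 and 0.83 at T8. DUSP10 was 1.95 higher at T4 and 1.0 at T8, and TTN-AS1 2.05 and 1.0. NUCKS1 had the other order, with 0.34 at T4 and 1.14 at T8.

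The step between T4 and T8 was compared directly, and 0 genes were called (limma, smallest adjusted p 0.78), with the step higher in peptide control animals for 613 genes (3.83%) and lower for 377 (2.35%) at an unadjusted p below 0.05, 6.18% of those tested. The genes leading that list were TMEM71 (difference of the steps 1.38 ± 0.23, SE), a membrane protein gene, ITGAM (1.29 ± 0.28), the CD11b integrin chain of neutrophils and monocytes, AASDH (1.15 ± 0.25), SARAF (1.02 ± 0.23), a regulator of calcium entry, and PPBP (1.30 ± 0.29), a platelet chemokine. ITGAM read 9.79, 10.24, 10.11 and 10.67 at T4 and 10.38, 11.58, 11.11 and 11.52 at T8 in peptide control animals. In Vehicle animals it read 9.33, 7.93, 10.95 and 10.23 at T4 and 9.04, 7.50, 11.09 and 9.41 at T8. All 4 peptide control animals were higher at T8 than at T4, and 3 of the 4 Vehicle animals were lower, with Y31303 the exception. The array set changed between the hours in Y31305 alone. With the set as a covariate, the step was higher for 901 genes and lower for 517 at an unadjusted p below 0.05 (limma), with 0 calls. That covariate fits Y31305 exactly, so it amounts to leaving this animal out (894 and 522) and does not test the array set.

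The inflammatory and myeloid gene lists had most of their members higher in peptide control animals, with no member called. Among chemokines 13 of 16 measured members were higher (median difference 0.66), among neutrophil granule genes 15 of 17 (0.57), among inflammatory cytokines 11 of 15 (0.49), among anti-inflammatory mediators 10 of 15 (0.44) and among inflammasome genes 13 of 18 (0.38). For NF-kB feedback and early response genes it was 16 of 23 (0.30), for monocyte markers 11 of 16 (0.27) and for mature neutrophil markers 11 of 16 (0.27). Over all genes, 7537 of 16020 were higher and the median was -0.03. At an unadjusted p below 0.05, where 2.68% of all genes were higher and 2.1% lower, there were 3 higher and 2 lower of 16 chemokines, 3 higher of 16 monocyte markers and 2 higher of 15 anti-inflammatory mediators. There was 1 higher and 1 lower of 17 neutrophil granule genes, 1 higher of 15 inflammatory cytokines, of 18 inflammasome genes and of 23 NF-kB genes, and 0 of 16 mature neutrophil markers. At T0, monocyte markers had a median of 0.25 (12 of 16 higher) and mature neutrophil markers 0.33 (14 of 16 higher). For the change since T0 their medians were -0.21 and -0.01, against -0.07 over all genes. The other lists of this paragraph had T0 medians between -0.03 and 0.13.

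The members of these lists that separated the arms without overlap were CXCL1 (higher) and CXCL16 (lower) among the chemokines, SOCS1 (higher) among the anti-inflammatory mediators and THBS1 (higher) among the monocyte markers. Over all genes 1.59% did so higher and 0.936% lower, and nothing is read from the number in these lists. PI3, the gene of elafin, an inhibitor of neutrophil elastase, read 7.41, 13.49, 12.56 and 13.03 in peptide control animals Y31305 to Y31308, against 6.01, 5.82, 13.78 and 6.41 in Vehicle animals Y31301 to Y31304. Its signal was thus high in 3 of 4 peptide control animals and in the Vehicle animal Y31303, and low in Y31305 and the other 3 Vehicle animals. The difference was 3.62 ± 1.84 (SE, adjusted p = 0.809), and its 95% confidence interval of -0.46 to 7.69 includes 0. FCGR1A, the high-affinity Fc receptor of monocytes, read 7.65, 11.30, 10.46 and 11.64 in peptide control animals, against 5.72, 4.31, 11.33 and 6.23 in Vehicle animals. Y31303 again sat with the 3 high peptide control animals, and the difference was 3.36 ± 1.37 (SE, adjusted p = 0.809).

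ME2, the mitochondrial malic enzyme, read 10.28, 11.72, 11.60 and 11.18 in peptide control animals, against 7.21, 6.93, 10.93 and 7.01 in Vehicle animals. Here Y31305 was also well above 3 of the Vehicle animals, and the difference was 3.18 ± 0.80 (SE, adjusted p = 0.809), with 2.15 at T0. The other 2 probe sets of ME2 both gave 0.36. ADM, the vasodilator adrenomedullin, read 6.46, 8.05, 8.05 and 8.27 in peptide control animals, against 5.99, 5.17, 8.85 and 5.26 in Vehicle animals. BATF3, a transcription factor of dendritic cells, read 6.82, 8.32, 8.31 and 8.15 in peptide control animals, against 6.29, 5.59, 8.16 and 6.55 in Vehicle animals. In both genes Y31305 lay nearer to the 3 low Vehicle animals than to its own arm.

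CXCL16, a membrane-bound chemokine, read 5.61, 5.32, 5.50 and 5.35 in peptide control animals, against 5.98, 6.41, 6.13 and 5.77 in Vehicle animals, lower without overlap by a difference of -0.63 ± 0.24 (SE, adjusted p = 0.809). CXCL1, a neutrophil-attracting chemokine, was higher without overlap (1.26 ± 0.46), with 1 of 8 peptide control arrays and 4 of 8 Vehicle arrays under the 20th percentile. IL1B, interleukin 1 beta, read 9.0, 10.59, 10.48 and 10.10 in peptide control animals, against 8.57, 8.41, 10.60 and 9.06 in Vehicle animals, a difference of 0.89 ± 0.50 (SE, adjusted p = 0.809). CCL2, the monocyte chemoattractant, read 4.98, 5.61, 6.27 and 5.64 in peptide control animals, against 1.06, 3.44, 5.79 and 3.91 in Vehicle animals, a difference of 2.07 ± 0.81. The lowest Vehicle value, in Y31301, comes from 2 arrays under the 20th percentile. CD274, the PD-L1 checkpoint ligand, read 11.74, 12.62, 12.36 and 11.99 in peptide control animals, against 10.77, 9.81, 12.45 and 10.89 in Vehicle animals, a difference of 1.20 ± 0.46 (SE, adjusted p = 0.809).

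ICAM1, an adhesion molecule that NF-kB turns on, was 7.67 ± 0.71 in peptide control animals and 6.11 ± 0.82 in Vehicle animals (SD, n = 4 each), a difference of 1.56 ± 0.46 (SE). TNF differed by 0.49 ± 0.55 and IL6 by 0.49 ± 0.53, with TNF at 3.44 in Y31305 against 5.47 to 5.92 in the other peptide control animals and 4.01 to 5.53 in Vehicle animals. IL6 differed by 1.71 at T4 and by -0.72 at T8, at levels of 1.25 to 4.95 over the 16 arrays, near the 20th percentile of log2 1.48 to 2.22. The other cytokines of the list were IL1A (0.71), OSM (1.0), IL27 (0.68), IL18 (0.87), CSF3 (0.78), CSF1 (0.37), LIF (0.19) and IL23A (0.13) on the higher side, and IL12B (-0.54), IL15 (-0.87), TNFSF10 (-0.03) and TNFSF13B (-0.43) on the lower side. For CSF3, 1 of 8 peptide control arrays and 5 of 8 Vehicle arrays lay under the 20th percentile.

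**Figure D3:**
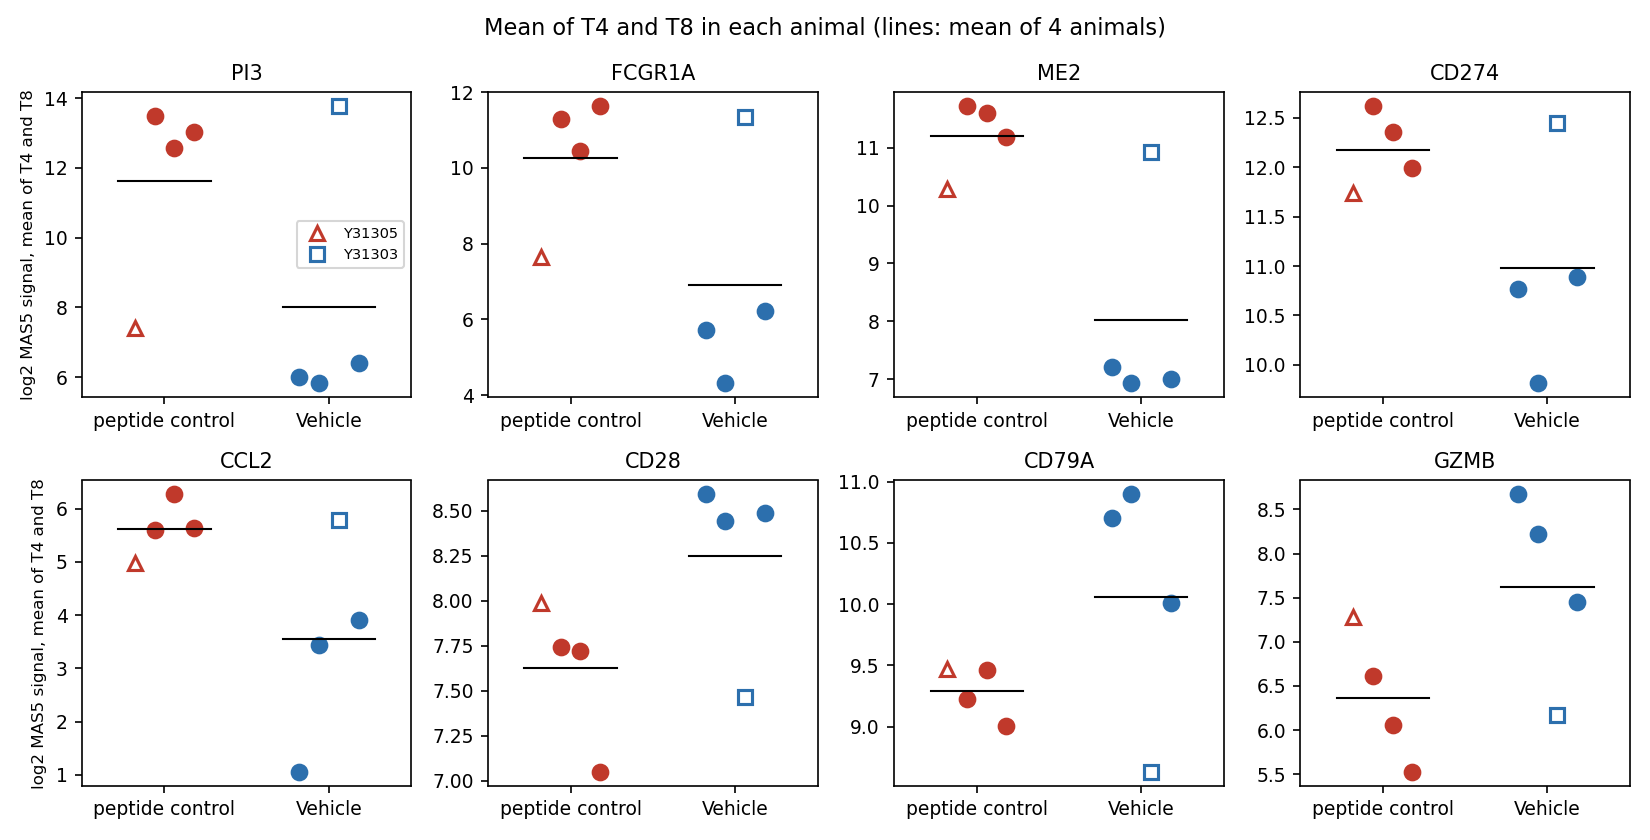
Mean of T4 and T8 (log2 MAS5 signal) of 8 genes in each animal, peptide control left and Vehicle right, with lines at the mean of 4 animals. The open triangle (Y31305, peptide control) lies below the other peptide control animals for PI3, FCGR1A and ME2, and the open square (Vehicle animal Y31303) lies with the peptide control animals in every panel except CD79A, where it is the lowest animal.

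Over all genes, 1 animal of each arm stood apart from its arm. Vehicle animal Y31303 correlated at a mean of 0.955 with the peptide control animals and 0.924 with the other Vehicle animals, across genes. Peptide control animal Y31305 correlated at 0.946 with its own arm and 0.955 with the Vehicle animals. Vehicle animal Y31304 was between the arms (0.953 with peptide control and 0.951 with Vehicle animals), and the other 5 were nearer to their own arm. More than 1 log2 unit above every other animal of its arm were 950 genes in Y31305 and 92 to 235 in the other peptide control animals, and 665 genes in Y31303 against 170 to 247 in the other Vehicle animals. More than 1 unit below were 531 genes in Y31305 and 250 to 560 in its arm, and 1619 in Y31303 against 250 to 501 in its arm. The T4 array of Y31305 also had the highest gap between the 3' and 5' GAPDH probe sets of the peptide control arrays, 1.65 log2 units against 0.54 to 1.20 on the others at T0, T4 and T8. These animals also follow the array sets at T4 and T8. Y31303 and Y31304 were the only Vehicle animals with high-control arrays. Y31305 was the only peptide control animal with an array of the other set. Array set and animal therefore cannot be told apart here. Whether RNA quality, the animal or the array lies behind these differences was not tested.

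The counts moved with these animals. Without Y31303, 3 genes were called for the mean of T4 and T8, ME2 (4.14 ± 0.33, SE, adjusted p = 0.0028), GPR84 (1.93 ± 0.20, adjusted p = 0.0195) and CSTA (3.17 ± 0.36, adjusted p = 0.0282). GPR84, a receptor for medium-chain fatty acids on phagocytes, and CSTA, the protease inhibitor cystatin A, were not chosen by the naming rule and are given because so few were called. Without Y31303 there were 39 calls at T4, 19 higher and 20 lower, and 2 at T8, ME2 and CSTA. At an unadjusted p below 0.05, 1228 genes were higher and 1860 lower without Y31303, and 716 and 1006 without Y31305, against 430 and 336 with all 8 animals. Leaving out Y31305 gave 0 calls, and so did leaving out any other animal, with 473 (without Y31301) to 708 (without Y31304) genes at an unadjusted p below 0.05. At T4 there were 3303 such genes without Y31303, 2095 without Y31305 and 622 to 994 without 1 of the others, against 1200 with all animals. At T8 there were 2091, 1609 and 412 to 561, against 681. For the change since T0 there were 1272, 1523 and 578 to 674, against 711. The PI3 difference was 5.54 without Y31303 and 5.02 without Y31305, and that of FCGR1A was 4.84 and 4.23. KYNU stayed between 1.25 and 1.33 under both omissions.

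**Figure D4:**
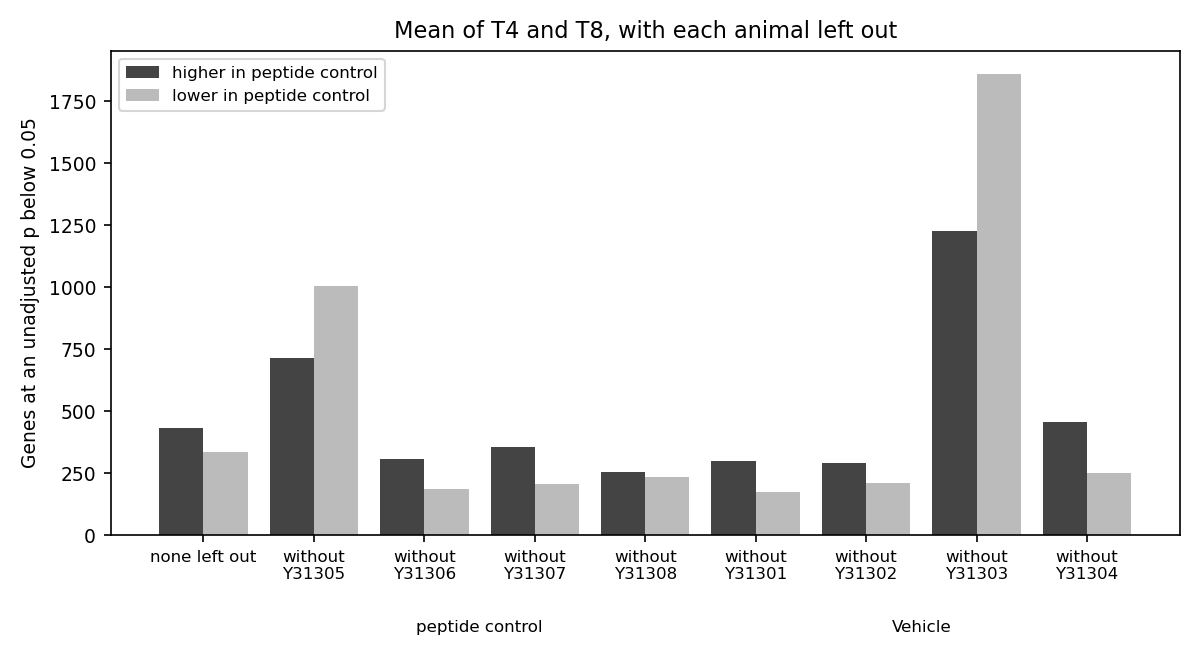
Number of genes at an unadjusted p below 0.05 for the mean of T4 and T8, higher (dark) or lower (light) in peptide control animals, with all 8 animals and with each animal left out in turn. The bars without Vehicle animal Y31303 (1228 and 1860) and without peptide control animal Y31305 (716 and 1006) are the only ones above those for all 8 animals on the lower side.

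Lymphocyte markers lay on the other side. Of the T cell markers, 17 of 18 measured were lower in peptide control animals, with a median difference of -0.55, and of the B cell markers 18 of 18 were lower, with a median of -0.33. Of the NK and cytotoxic markers 14 of 20 were lower (median -0.41), of the dendritic cell markers 10 of 15 (-0.37) and of the MHC class II presentation genes 12 of 15 (-0.35). No member of these lists was called, and at an unadjusted p below 0.05 there were 1 of 18, 0 of 18, 3 of 20, 0 of 15 and 1 of 15 lower, against 2.1% of all genes. On the higher side, where 2.68% of all genes were, there was 1 of 15 dendritic cell markers, BATF3, and no member of the other lists. In whole blood, fewer cells of a type and less RNA per cell cannot be told apart.

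CD28, the T cell costimulatory receptor, read 7.99, 7.74, 7.72 and 7.05 in peptide control animals, against 8.59, 8.44, 7.47 and 8.49 in Vehicle animals. Y31303 was the Vehicle animal that lay among the peptide control animals, and the difference was -0.62 ± 0.32 (SE, adjusted p = 0.809). At T4 the arms did not overlap for CD28: it read 7.67, 7.26, 6.99 and 6.76 in peptide control animals, against 8.77, 8.37, 8.17 and 8.88 in Vehicle animals. At T8 its difference was 0.13. The T cell list as a whole had a median of -0.86 at T4, -0.27 at T8 and -0.16 at T0. At T4, 8 of 18 members were at an unadjusted p below 0.05 (limma) on the lower side, where 3.91% of all genes were. These values come from the fit without the array set, and at T4 4 of 4 peptide control but 2 of 4 Vehicle arrays were high-control. With the set as a covariate, 204 of all genes were lower at T4 at that threshold, against 627 without it. At T4 the set varies among Vehicle animals alone, so that fit sets the 4 peptide control animals against Y31303 and Y31304. Array set and animal cannot be told apart there.

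ZAP70, the kinase of the T cell receptor, read 5.54, 5.06, 4.78 and 4.54 in peptide control animals, against 6.03, 6.21, 5.61 and 6.09 in Vehicle animals, and was the only T cell marker whose arms did not overlap (-1.0 ± 0.29, SE). The other probe set of ZAP70 gave 0.04, with overlap. CD4 differed by -0.99 ± 0.45. CD79A, the B cell receptor chain, read 9.47, 9.22, 9.46 and 9.01 in peptide control animals, against 10.70, 10.90, 8.63 and 10.01 in Vehicle animals. Y31303 was the lowest of all 8 animals there, and the difference was -0.77 ± 0.43. GZMB, the cytotoxic protease granzyme B, read 7.28, 6.61, 6.05 and 5.53 in peptide control animals, against 8.67, 8.22, 6.17 and 7.45 in Vehicle animals, a difference of -1.26 ± 0.55 (SE, adjusted p = 0.809). CCL5, a chemokine of T and NK cells, differed by -1.06 ± 0.46, and LILRA4 of plasmacytoid dendritic cells by -1.15 ± 0.57. BATF3, of the same dendritic cell list, went the other way, by 1.26.

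The same 2 animals stood apart in these lists. Y31303 was below every other Vehicle animal for 18 of 18 T cell markers, 18 of 18 B cell markers and 15 of 20 NK and cytotoxic markers. Y31305 was above every other peptide control animal for 17 of 18 T cell markers, 8 of 18 B cell markers and 14 of 20 NK and cytotoxic markers. The mean level of the T cell markers was 8.11 in Y31305 and 7.19, 7.06 and 6.98 in the other peptide control animals, against 6.90 in Y31303 and 8.16, 8.32 and 8.10 in the other Vehicle animals. For the neutrophil granule genes it was 6.49 in Y31305 and 8.59, 8.25 and 8.87 in the other peptide control animals, against 8.70 in Y31303 and 6.29, 6.29 and 6.61 in the other Vehicle animals. Without Y31303 the median difference was -0.84 for T cell markers, -0.79 for B cell markers, 1.05 for chemokines and 0.83 for neutrophil granules. Without Y31305 it was -0.80, -0.50, 0.90 and 0.97 for the same lists. Not every list moved this way. Inflammatory cytokines, at 0.49 with all animals, were at 0.23 without Y31303 and 0.67 without Y31305. NF-kB genes, at 0.30 with all animals, were at 0.26 and 0.22.

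**Figure D5:**
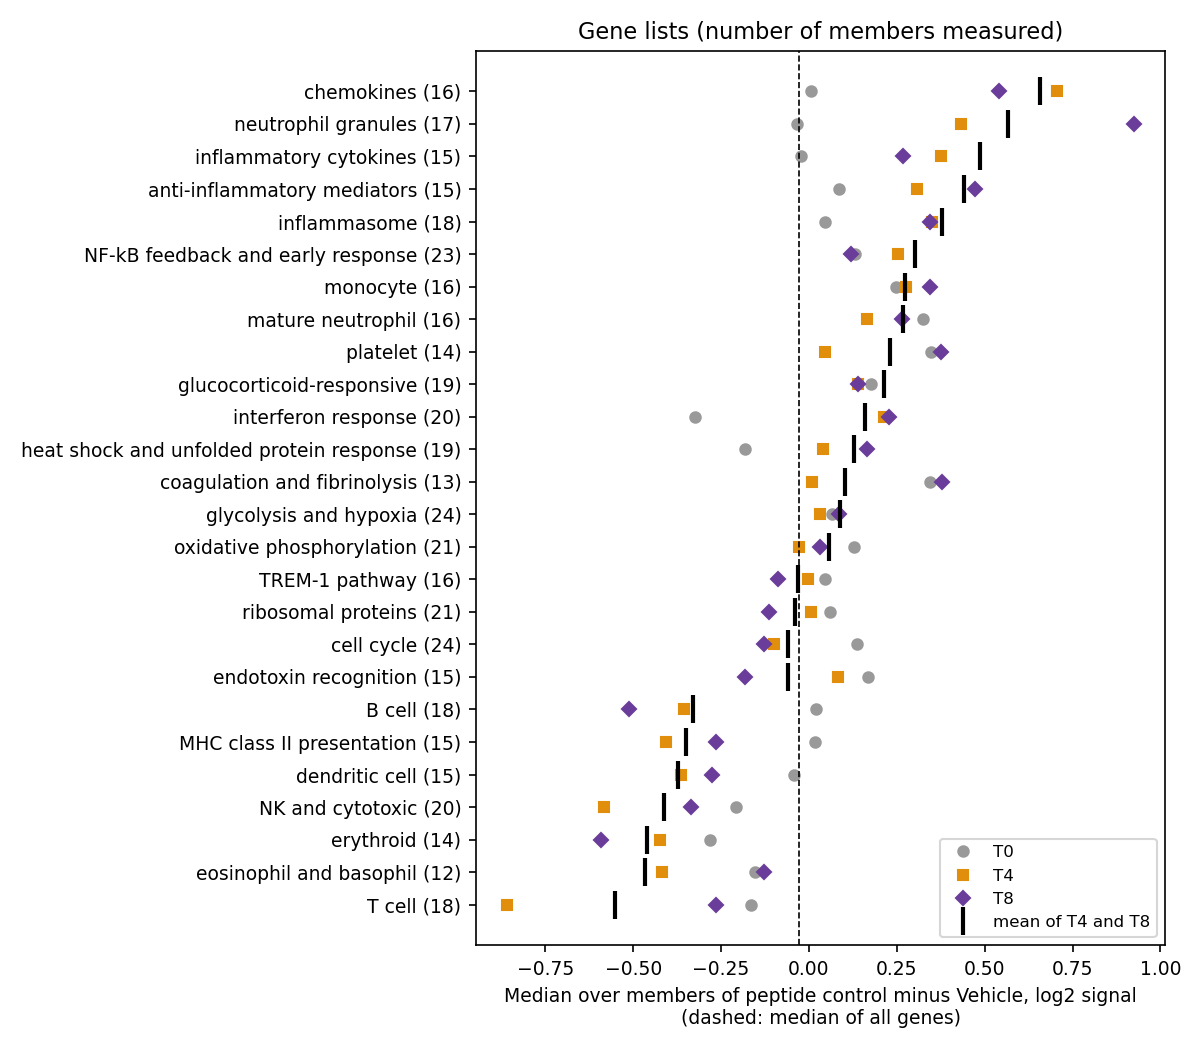
Median over the measured members of each gene list (number in brackets) of the difference, peptide control minus Vehicle, in log2 signal, at T0 (circles), T4 (squares), T8 (diamonds) and for the mean of T4 and T8 (bars), with the median of all genes dashed. Chemokines (0.66) and neutrophil granule genes (0.57) are at the top and T cell markers (-0.55) at the bottom for the mean of T4 and T8.

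The lists differ between the array sets too. Among the high-control arrays alone, which leave 3 peptide control animals and 2 Vehicle animals for the mean of T4 and T8, 0 genes were called, with 304 higher and 311 lower at an unadjusted p below 0.05. The median difference was then -0.48 for T cell markers, 0.11 for B cell markers, -0.08 for MHC class II presentation, 0.06 for chemokines and 0.74 for neutrophil granules. With the set as a covariate over all 8 animals, 0 genes were called, and the same medians were -0.15, 0.04, 0.03, 0.09 and 0.38. With the covariate, anti-inflammatory mediators were at 0.08, mature neutrophil markers at 0.08, monocyte markers at 0.14, inflammasome genes at 0.25, NF-kB genes at 0.18, inflammatory cytokines at 0.30, NK and cytotoxic markers at -0.14 and dendritic cell markers at -0.08. Among high-control arrays these were 0.19, 0.22, 0.06, 0.28, 0.17, 0.37, -0.39 and -0.14 in the same order. KYNU was 1.12 among high-control arrays and 1.16 with the covariate, C9orf72 1.89 and 1.66, PARK7 -1.27 and -1.15, and THBS1 3.06 and 2.32. High-control arrays alone gave 0 calls at T4 (230 and 171 genes) and at T8 (452 and 345). No comparison was made within the other 5 arrays, which held 1 peptide control array. The part of the array set in the list medians was not tested beyond these values.

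The TREM-1 pathway, which LR12 addresses, had a median difference of -0.03 over its 16 measured members, 7 of them higher, the same as the median of all genes. TREM1 itself read 11.77, 7.62, 11.01 and 10.40 in peptide control animals, against 12.03, 11.39, 7.82 and 10.66 in Vehicle animals. Y31306 and Y31303 lay more than 2 units below the rest, one in each arm, and they were the lowest of their arms at T0 as well, at 7.73 and 8.37. The difference was -0.28 ± 1.0 (SE, 95% confidence interval -2.50 to 1.95), so a difference of more than 1 unit in either direction lies within the interval. TREM1 was read by a single probe set.

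TYROBP, the adaptor through which TREM-1 signals, differed by -0.00 ± 0.13, with all 8 animals between 12.86 and 13.28. Downstream, the kinase SYK differed by -0.21, the phospholipase PLCG2 by -0.24, LAT2 by 0.03, BCL10 by 0.50 and MALT1 by -0.12. Of the relatives of TREM1, TREML1, the source of the LR12 sequence, differed by 0.21 ± 0.38, TREML2 by 0.46, TREML4 by -0.23 ± 0.85, TREM2 by 0.82 ± 0.41 and the inhibitory receptor gene CD300A by -0.06. The adaptor HCST differed by -1.04 ± 0.55, and the ligands PGLYRP1 and HMGB1 by 0.23 and 0.05. ZAP70, described with the T cell markers, was the one member of this list at an unadjusted p below 0.05, on a probe set whose difference its other probe set (0.04) did not share.

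Endotoxin recognition genes had a median of -0.06 (0.04 without Y31303), with 6 of 15 higher. LBP, the lipopolysaccharide-binding protein, differed by 1.76 ± 0.60, at levels where 5 of 8 Vehicle arrays and 1 of 8 peptide control arrays lay under the 20th percentile. TLR8 differed by -0.35 ± 0.16 and the kinase IRAK1 by -0.54 ± 0.37. Interferon response genes had 14 of 20 members higher and a median of 0.16, with -0.32 at T0. It was -0.09 without Y31305 and -0.21 among high-control arrays, but 0.29 without Y31303 and 0.17 with the array set as a covariate. For the change since T0, 20 of 20 members were higher in peptide control animals, with a median of 0.53 against -0.07 over all genes. At an unadjusted p below 0.05, 4 of 20 were higher in that change, where 2.17% of all genes were.

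Erythroid markers were lower in 12 of 14, with a median of -0.46 and 4 of 14 at an unadjusted p below 0.05 on the lower side, where 2.1% of all genes were. EPB41, a protein of the red cell membrane skeleton, read 11.80, 11.52, 11.47 and 11.45 in peptide control animals, against 11.96 to 12.07 in Vehicle animals. Its arms did not overlap, with a difference of -0.45 ± 0.13 (SE, adjusted p = 0.809). ALAS2, the first enzyme of heme synthesis in erythroid cells, differed by -0.47 ± 0.18, and SELENBP1 by -0.81 ± 0.34. The median of the list was -0.28 at T0, and -0.74 among high-control arrays.

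Lists of general cell functions had small medians that moved with animals and array sets. Ribosomal proteins had a median of -0.04, oxidative phosphorylation 0.06 (-0.01 with arrays centred), cell cycle genes -0.06, and glycolysis and hypoxia genes 0.09. Ribosomal proteins were at -0.16 with 0 of 21 higher among high-control arrays, and at -0.11 without Y31305. Cell cycle genes were at -0.22 without Y31303, -0.15 without Y31305 and 0.09 with the array set as a covariate, and glycolysis and hypoxia genes at 0.17 without Y31303 and -0.03 among high-control arrays. Platelet markers had 12 of 14 members higher and a median of 0.23 (0.35 at T0), and coagulation and fibrinolysis genes 9 of 13 and 0.10. Without Y31303 these medians were 0.36 and 0.26, without Y31305 0.13 and 0.08, and among high-control arrays 0.13 and -0.09. Eosinophil and basophil markers had 3 of 12 higher and a median of -0.47 (-0.26 without Y31305 and -0.18 among high-control arrays), with PRG2 (1.96 ± 0.67), the eosinophil major basic protein, beside CPA3 (-1.37 ± 0.85) and CMA1 (-1.09 ± 0.60), proteases of mast cells and basophils. CPA3 lay under the 20th percentile on 3 of 8 peptide control and 2 of 8 Vehicle arrays, and PRG2 on 1 of 8 in each arm. Among glucocorticoid-responsive genes (median 0.21, -0.02 among high-control arrays, 12 of 19 higher), ADORA3, an adenosine receptor, was lower without overlap (-1.15 ± 0.32). Among heat shock and unfolded protein response genes (0.13, 0.29 without Y31303, 11 of 19 higher), DNAJB9, an endoplasmic reticulum co-chaperone, was higher without overlap (0.81 ± 0.25).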

How the data were processed

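The deposited values were linear microarray intensities for 54675 probe sets on 56 arrays, made by the authors with MAS5 per the submitters' processing notes, whose version and settings are not given in the sources used here. Per the labels' protocols, blood was collected in PAXgene tubes and biotinylated cDNA was made with a NuGEN whole blood kit. The mean after trimming 2% at each end was 150.03 to 150.04 on every array. MAS5 scales arrays to one mean, so a shift shared by most genes is not visible.

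Intensities were put on the log2 scale. A probe set was kept if it exceeded the array's median on at least 4 of the 56 arrays (38767 kept), and each gene was read by its kept probe set with the highest mean (16020 genes). Gene names came from the platform annotation, in which 41097 probe sets had 1 symbol, 1801 several and 11777 none, and 13561 of the genes carry a symbol of the macaque gene table. Each animal's mean of T4 and T8 was tested with limma 3.58.1 in R 4.3.3 (trend and robust moderation, two-sided, Benjamini-Hochberg adjustment over all genes), 4 animals against 4. The replicate numbers are animals: residuals of an animal's T4 and T8 arrays correlated at 0.14 to 0.51 (mean 0.27), against -0.09 between animals, and the block fits used statmod 1.5.0. The precision is limited by the number of animals, and p values set the difference between the arms against the spread between these animals.

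Genes were named by rule: the 12 per direction with the smallest p whose animals did not overlap, with one direction at both hours and a mean of at least log2 6 in the higher arm. Added were the first 3 of each of 26 lists, all TREM-1 pathway and cytokine members, and the first 5 per hour and for the step. The comparison, genes and lists were chosen with earlier results of these data known. The fit was tested on simulated data.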

Additional observations from a re-analysis of the deposited data

Results flagged for a closer look

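Animals that lie far from the other 3 of their arm were looked for in the named genes, and in the median signal and GAPDH gap of the arrays. The measure was the gap to the nearest animal over the whole range of the arm (Dixon's criterion). It marked 19 of 262 groups, where chance alone marks about 1 in 20 groups of independent normal values. The genes are not independent, and many were chosen for their values in these animals. The values are log2 signals for the mean of T4 and T8.

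In peptide control animals, Y31305 was the lowest for PI3 (7.4065, the others 12.56 to 13.49), ADM (6.4576), BATF3 (6.8189), LBP (2.3405) and HIF1A (12.739). Y31306 was the lowest for DNAI2 (6.5982) and the highest for UQCRB (12.243), Y31307 was the highest for DUSP10 (6.8722), and Y31308 the highest for ALAS2 (13.151).

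In Vehicle animals, Y31303 was the highest for PI3 (13.778, the others 5.82 to 6.41), ME2 (10.925, the others 6.93 to 7.21), MAOA (7.4288) and UQCRB (12.071), and the lowest for CD28 (7.4656) and MME (6.659, the others 9.68 to 9.98). Y31304 was the highest for KYNU (10.42, the others 9.62 to 9.66), NUCKS1 (9.6975) and IL12B (3.8485), and Y31301 the lowest for LIF (2.4755). The cause was not tested.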

How the results depend on the processing

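For the mean of T4 and T8, T4 and T8, the number of called genes was 0 under every scaling, filter, probe set and array set setting run. Leaving out 1 animal gave 0 to 3 for the mean, 0 to 39 at T4 and 0 to 2 at T8, all above 0 without Vehicle animal Y31303. The replicate block gave 1 and 37 for the mean (16 and 56 arrays), 4 at T4 and 4 at T8. For the step, 1 gene was called without the filter on low values, RASSF8-AS1, named after its value was seen. The change since T0 gave 0 throughout, and no block fit was made for it or the step, which are differences within an animal. The split of higher against lower genes at an unadjusted p below 0.05 depended on the scaling: 430 and 336 as deposited, 304 and 524 with arrays centred on their median, and 422 and 421 with quantile normalization; at T4 it was 573 and 627 as deposited, and 380 and 890 centred, and at T8 390 and 291, and 269 and 373. With the array set as a covariate the T4 counts were 285 and 204, in a fit that sets the peptide control animals against Y31303 and Y31304.

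Of 2534 values of named genes, 45 changed sign, over 19 genes. Centring gave LAT2 -0.042 and HMGB1 -0.022, and quantile normalization TYROBP 0.0070. The mean over probe sets gave HLA-DQB1 0.15, RPL18 0.071, MCM4 0.043, MALT1 0.017, IL23A -0.43 and TNFSF10 0.34. The array set as a covariate gave TREM1 0.75, LAT2 -0.059, PGLYRP1 -0.18, HMGB1 -0.016 and TNF -0.10. High-control arrays alone, a setting added after the data were seen, gave FCRL1 0.13, FCRLA 0.11, HIF1A -0.0083, TREM1 0.44, LAT2 -0.0096, HMGB1 -0.093 and LIF -0.14. Leaving out 1 animal gave TREM1 -1.16 to 0.59, TREML1 -0.081 to 0.51, TREML4 -1.24 to 0.20, TYROBP -0.077 to 0.063, CD300A -0.20 to 0.21, LAT2 -0.067 to 0.18, MALT1 -0.40 to 0.044, HMGB1 -0.0018 to 0.093, IL23A -0.13 to 0.28, LIF -0.013 to 0.42 and TNFSF10 -0.17 to 0.15. The cause was not tested.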
